A study of Homo sapiens with 18 samples.

Results

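The p53 response genes are a small set of genes whose transcription is raised by the tumour suppressor p53 when cells are damaged. Of the 9 genes in the set (CDKN1A, MDM2, GADD45A, SESN1, BBC3, TP53I3, BTG2, PPM1D and FAS), every probe set annotated to exactly 1 of them was taken as a member. A probe set is the group of short oligonucleotides with which the array measures 1 transcript. The rule found 14 member probe sets among 22283 on the array, and they cover 7 of the 11963 genes with a probe set of their own. MDM2 had 5 member probe sets and FAS had 4, and CDKN1A, GADD45A, SESN1, TP53I3 and PPM1D had 1 each. The 1 probe set that lists BBC3 also lists 2 other genes and was not counted, and no member was found for BTG2.

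p53 is a transcription factor that is held at a low level in unstressed cells because MDM2, the product of one of its own targets, marks it for destruction. DNA damage and other stresses release p53 from MDM2, and p53 then raises genes that stop the cell cycle, repair or protect the cell, trigger apoptosis, and shut the response down again. SH-SY5Y is a human neuroblastoma line, grown from a tumour of the sympathetic lineage, that is generally described as carrying a functional p53 gene and is widely used as a neuron-like model.

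The arrays compare SH-SY5Y cells exposed to sarin at 5 ppm with untreated SH-SY5Y cells, each collected at 3, 24 and 48 h. Sarin, a nerve agent of the organophosphate class, inhibits acetylcholinesterase. Each of the 6 groups has 3 Affymetrix arrays of total RNA, 18 arrays in all. The labels name 6 flasks of cells for a group and do not tie flasks to arrays, and the p-values below therefore reflect array-to-array spread that may be only technical. All groups are 1 cell line. In RNA from whole flasks, fewer cells of a type and less RNA per cell cannot be told apart.

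RNA from sarin-exposed cells at 48 h gave 3 arrays unlike the other 15. The ratio of 3′ to 5′ signal of GAPDH, which rises when RNA is degraded, was 2.15 to 2.301 on them, against 0.6964 to 1.167 on the other 15 arrays. The ACTB ratio was 3.675 to 4.669, against 0.7903 to 1.635. Probe sets for bacterial genes that were not added to the samples served as a background: a probe set counted as above background on an array where it exceeded the 90th percentile of 27 such probe sets. That threshold was a signal of 410.7 to 443.2 on the 48 h sarin arrays, against 97.04 to 182.9 on the others. At 48 h, 23 of the 27 bacterial probe sets were higher in the sarin group, with a median log2 change of 0.98. Over all 22215 probe sets tested the median log2 change was -0.02 at 3 h, -0.16 at 24 h and 0.62 at 48 h. At 24 h the GAPDH ratio was 1.046 to 1.167 in sarin-exposed and 0.8106 to 0.9412 in untreated cells. The part of these differences in the results below was not tested.

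Markers of noradrenergic neuroblastoma cells were present: 9 of 11 measured genes were above background on all 18 arrays, while TH, the rate-limiting enzyme of catecholamine synthesis, was above background on none. Of 7 markers of substrate-adherent cells, the other cell form of this line, 6 were above background on all 18 arrays. So was 1 of 3 measured glial markers, with S100B on no array, and 1 of 3 blood markers, HBB. Of the member probe sets, 4 were above background on all 18 arrays, those of CDKN1A, SESN1, TP53I3 and PPM1D. GADD45A was above background on 17 arrays, the 5 MDM2 probe sets on 16, 11, 8, 7 and 0, and the 4 FAS probe sets on 16, 16, 12 and 5. Levels are given as the deposited signal, and changes as log2 changes of signal plus 16, sarin over untreated, with their standard error.

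p53 binds DNA as a tetramer at a pair of 10-base half-sites that share a common pattern, the p53 consensus. The RefSeq promoter windows of the members (GRCh38.p14) run from 250 bases before to 50 after a transcript start. A gene can have several such starts. The windows were searched on both strands for a 20-base pair of half-sites with no spacer. The central C and G of both half-sites were kept, and at most 3 bases could be off the consensus. A match was present in 392 of 35116 windows of the same length, or 1.12%. Among the members it was present in 2 of 4 windows of MDM2, 1 of 3 of SESN1 and 1 of 3 of FAS, and in the only window of CDKN1A, TP53I3 and PPM1D no such letters were found. GADD45A had no window and was not searched. Bases outside the windows were not searched for any gene, so a gene without a match may have a site elsewhere. The 2 MDM2 windows, chr12:68808767-68809066 and chr12:68808774-68809073, overlap and hold the same 20 bases, so they are 1 match. The tolerance was chosen with a known element of MDM2 in view, so its match is a description only. The 150 bases before the start are shown for the 3 genes with a match, which is in capitals. They cover chr12:68808867-68809016 (plus strand) for MDM2, chr6:109008989-109009138 (minus strand) for SESN1 and chr10:88991281-88991430 (plus strand) for FAS. All 3 stretches lie inside the span of their gene, not before its outermost start. The spans are chr12:68808172-68850686 for MDM2, chr6:108984309-109094846 for SESN1 and chr10:88964050-89017059 for FAS.
MDM2: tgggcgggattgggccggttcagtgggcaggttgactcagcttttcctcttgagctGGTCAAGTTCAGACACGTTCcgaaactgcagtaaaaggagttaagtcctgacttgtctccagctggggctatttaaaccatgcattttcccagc
SESN1: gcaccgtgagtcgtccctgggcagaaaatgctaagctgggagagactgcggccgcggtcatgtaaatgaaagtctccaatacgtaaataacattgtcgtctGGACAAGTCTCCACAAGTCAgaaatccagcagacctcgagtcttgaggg
FAS: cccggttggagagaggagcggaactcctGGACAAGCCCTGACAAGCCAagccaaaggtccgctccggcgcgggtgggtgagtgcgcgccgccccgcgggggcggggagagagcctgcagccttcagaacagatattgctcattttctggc
The matches have 2, 3 and 2 bases off the consensus in MDM2, SESN1 and FAS. They begin 94, 49 and 122 bases before the start, counted back from the first base of the transcript.

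No p53 response gene passed the test at 3 or 24 h, and MDM2, FAS and TP53I3 did at 48 h, when most of the array did too. Limma, a linear model fitted to all 22215 probe sets and 18 arrays with Benjamini-Hochberg adjustment, called 0 of the 14 members at 3 h (adjusted p under 0.05), and 0% of all probe sets. At 24 h it again called 0 of 14, where 3.37% of all probe sets were called. At 48 h it called 6 of 14, 5 higher and 1 lower, where 63.2% of all probe sets were called, 41.7% higher and 21.5% lower. Among the 5 counted as higher, MDM2 211832_s_at was above background on no array. The share of members called at 48 h was therefore below that of the array as a whole. Without adjustment, 2 members had a p under 0.05 at 3 h (1941 of all 22215 probe sets) and 4 at 24 h (4175 of all). The median log2 change over the 14 members was 0.03, -0.21 and 0.22 at 3, 24 and 48 h.

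**Figure D1:**
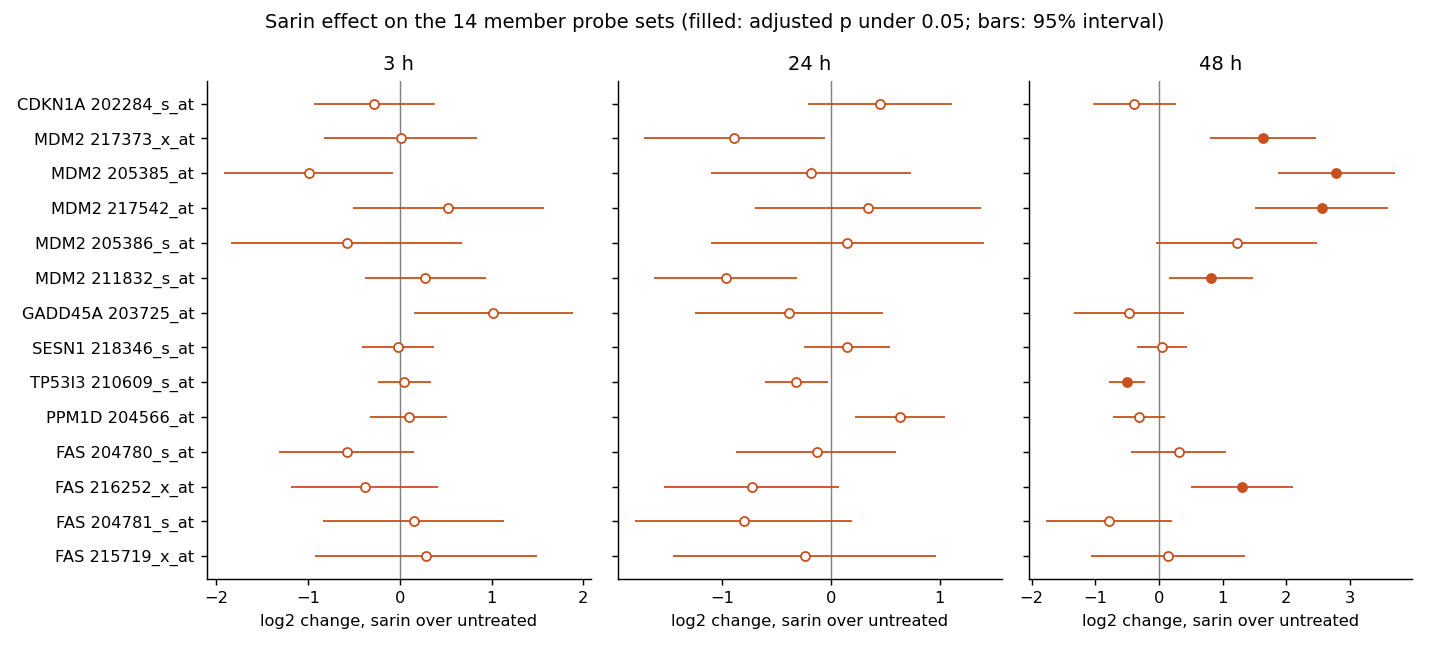
Log2 change of signal plus 16, sarin over untreated, for the 14 member probe sets at 3, 24 and 48 h, with 95% confidence intervals from limma; filled points have an adjusted p under 0.05. No point is filled at 3 or 24 h; at 48 h 4 MDM2 probe sets (among them 211832_s_at, which was above background on no array), FAS 216252_x_at and TP53I3 are filled, and TP53I3 alone of these lies below 0.

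CDKN1A encodes p21, the inhibitor of cyclin-dependent kinases through which p53 stops the cell cycle, and it is the most used transcriptional readout of p53. At 3 h its signal was 1306.2, 1758.4 and 1248.8 in sarin-exposed cells, against 2348.9, 1109.1 and 1971 in untreated cells. At 24 h it was 1434.9, 1510.8 and 1756.2 with sarin, against 1379.3, 1071.9 and 995.8 without. The 3 sarin arrays at 24 h lay above the 3 untreated ones, whereas at 3 h the groups overlapped. At 48 h the sarin arrays read 1039.4, 1939.9 and 622.7, a wide spread that covers the untreated values of 1776.4, 1317.4 and 1214.8.

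The log2 change of CDKN1A was -0.28 ± 0.31 at 3 h (adjusted p = 0.846), 0.45 ± 0.31 at 24 h (0.463) and -0.39 ± 0.31 at 48 h (0.289), so none passed the limma test. The 95% confidence interval at 24 h ran from -0.21 to 1.11. A rise of about the size of a doubling is thus inside the interval, and so is no change. Without replicate 2 of the 48 h sarin arrays, the highest of that group, the 48 h change was -0.80 with an adjusted p of 0.0209. Ordered by mean signal, CDKN1A was highest in untreated cells at 3 h, followed by sarin at 24 h, sarin at 3 h, untreated at 48 h, sarin at 48 h and untreated at 24 h. No group in that order was separated from its neighbour by non-overlapping arrays.

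**Figure D2:**
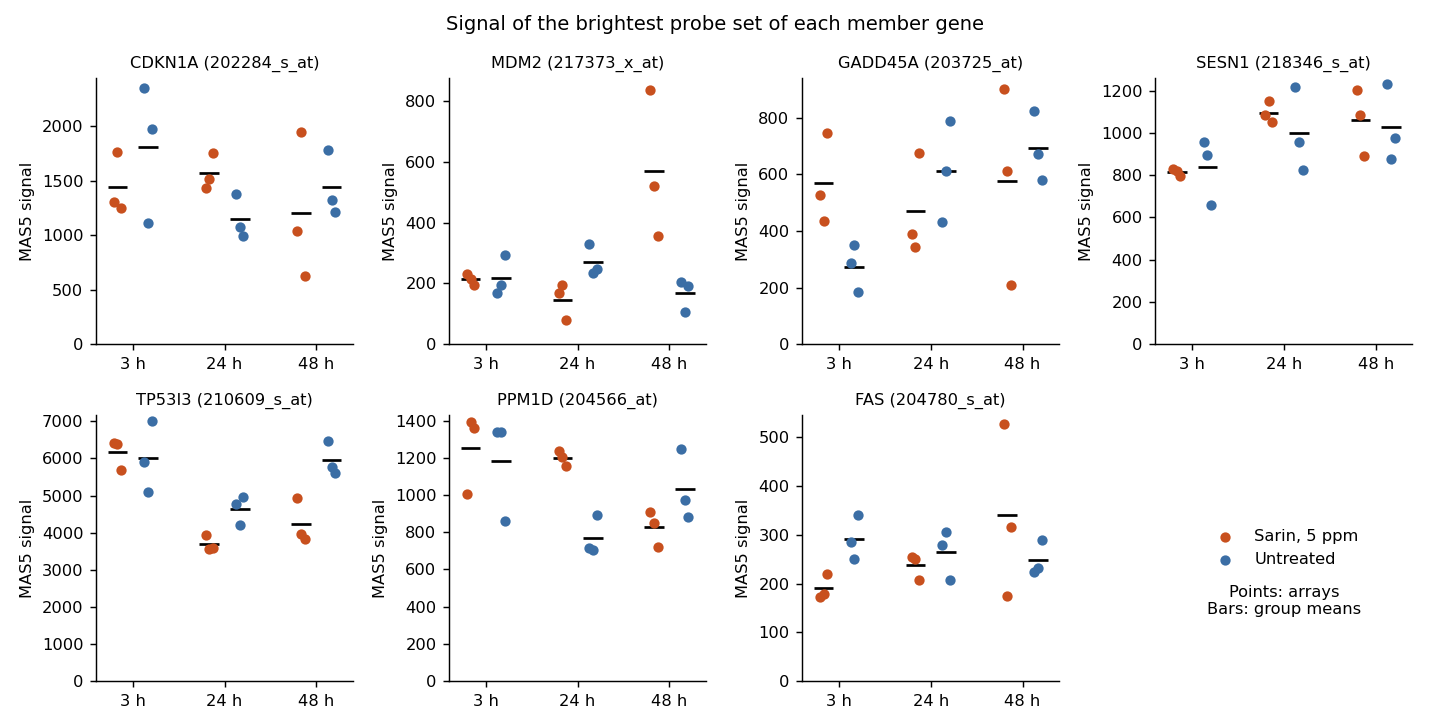
Signal on each array (points) and group means (bars) for the probe set of highest mean signal of each member gene, sarin-exposed cells left of untreated cells at 3, 24 and 48 h, on linear axes from 0. CDKN1A and PPM1D have their 24 h sarin arrays above the untreated ones, MDM2 217373_x_at has its 48 h sarin arrays at 356.4 to 837.1 above the untreated 107.4 to 204.4, and TP53I3 has its 24 and 48 h sarin arrays below.

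GADD45A encodes a small stress protein that binds PCNA and cyclin B1-CDK1 complexes and takes part in growth arrest and DNA repair. At 3 h it read 527, 435.7 and 748.3 in sarin-exposed cells, against 288, 350.8 and 184 in untreated cells. All 3 sarin arrays lay above all 3 untreated ones, and the log2 change was 1.02 ± 0.41, a fold of 2.03. It did not pass the limma test (adjusted p = 0.49). Among probe sets of similar level (the same decile by level in the untreated cells of the other times), 99.5% had a smaller value at 3 h. Arrays of the groups did not overlap at 3 h for 3 of 14 members, GADD45A higher and MDM2 205386_s_at and FAS 204780_s_at lower, where 13% of all probe sets did not overlap.

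Untreated cells themselves differed in GADD45A between times. The 3 h untreated mean of 274 ± 84.2 compares with 611 ± 179 at 24 h and 692 ± 122 at 48 h (SD, n = 3 each). The log2 change in untreated cells was 1.11 ± 0.41 for 24 against 3 h (limma, adjusted p = 0.139) and 1.32 ± 0.41 for 48 against 3 h (0.226). In sarin-exposed cells the values were 389.9, 344 and 674.7 at 24 h, against 431.8, 611.5 and 789.6 without sarin, and 903.5, 611.8 and 210.4 at 48 h, against 823.2, 671.9 and 581.5. The arrays overlapped at both times, and the changes of -0.39 ± 0.41 and -0.47 ± 0.41 did not pass (adjusted p = 0.656 and 0.33).

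MDM2 is the ubiquitin ligase that closes the negative feedback on p53, and its 5 probe sets read different stretches of its transcripts. On this array type, the suffix _x_at marks probe sets whose probes can also match other sequences. At 48 h limma called 4 of the 5 higher, of which 1 was above background on no array. The probe set 205385_at read 720.7, 459.5 and 936.2 in sarin-exposed cells, against 78.1, 110.9 and 68.9 in untreated cells. Its log2 change was 2.79 ± 0.44 (limma, adjusted p = 3.3e-05), and it was above background on 3 of 3 sarin and 1 of 3 untreated arrays.

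For 217542_at the 48 h sarin arrays read 544.9, 331.6 and 422.9, against 97.8, 17 and 96.2 without sarin. It was above background on 1 of 3 sarin arrays and on no untreated array. Limma called it higher (adjusted p = 0.000268). No size is read from that change, since the sarin arrays read close to their own background threshold of 410.7 to 443.2. Log2 values of this probe set given further below carry the same limit. MDM2 217373_x_at read 837.1, 521.3 and 356.4 with sarin, against 204.4, 107.4 and 191.8 without, a log2 change of 1.64 ± 0.40 (adjusted p = 0.00176), with 2 of 3 sarin arrays above background. In all 3 of these probe sets every sarin array lay above every untreated one.

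MDM2 211832_s_at was called by limma (adjusted p = 0.0298) but was not above background on any of the 18 arrays, so neither a size nor a direction is read from it. The bacterial background probe sets, as given above, had a median log2 change of 0.98. It lost the call without untreated replicate 1 (adjusted p = 0.0969), untreated replicate 2 (0.0649) or sarin replicate 3 (0.133). MDM2 205386_s_at read 495.3, 151.4 and 474.4 with sarin, against 40.5, 281.4 and 181.4 without, and its 1.22 ± 0.60 did not pass (adjusted p = 0.0833). Sarin replicate 2 lay within the untreated range. Without it, or without untreated replicate 2, the change passed (1.75 and 1.72, adjusted p = 0.0241 and 0.0303).

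**Figure D3:**
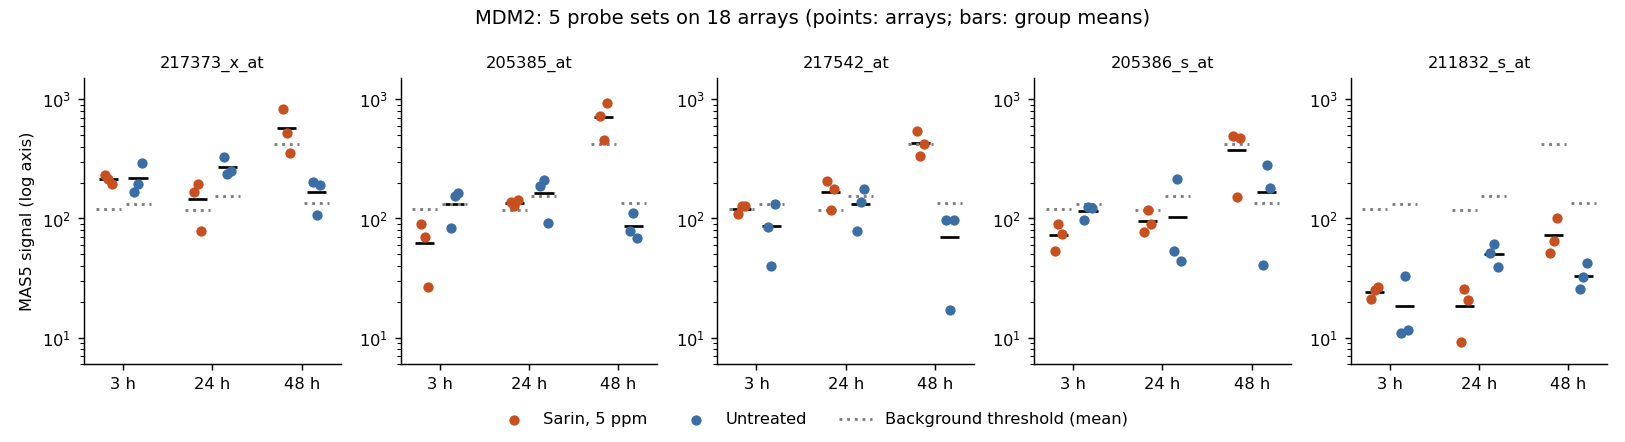
Signal of the 5 MDM2 probe sets on each array (points, log axis) with group means (bars) and the mean background threshold of each group (dotted), sarin-exposed cells left of untreated cells. At 48 h the sarin points of 205385_at, at 459.5 to 936.2, lie above the raised threshold, those of 217373_x_at and 217542_at lie on both sides of it, and those of 211832_s_at lie below it.

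Low signals as a class were higher on the 48 h sarin arrays. Probe sets in the lowest decile by level, taken from untreated cells at 3 and 24 h, had a median log2 change of 1.20 at 48 h, and those in the highest decile had -1.06. The decile that holds MDM2 205385_at had a median of 1.25, and 94.1% of its probe sets lay below 2.79. MDM2 217373_x_at lay above 77.8% of its decile, whose median was 0.96. The 1.22 of 205386_s_at was near the median of its decile, 1.25.

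**Figure D4:**
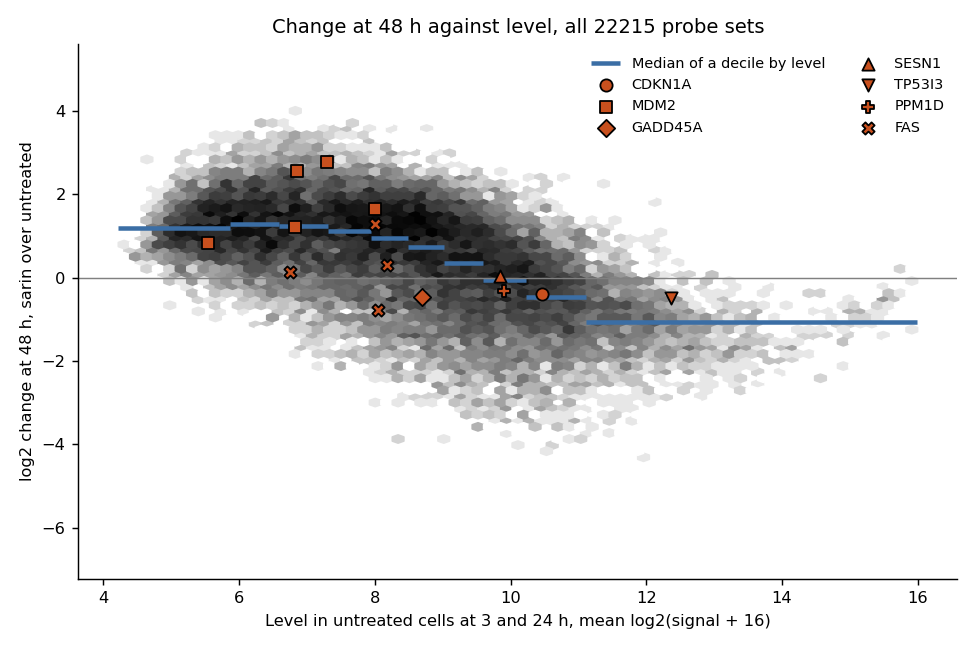
Log2 change at 48 h, sarin over untreated, against mean log2 signal plus 16 in untreated cells at 3 and 24 h, for all 22215 probe sets (grey density), with the median of each decile by level (blue) and the 14 members (symbols). The medians go from 1.20 in the lowest decile to -1.06 in the highest; MDM2 205385_at, at 2.79, lies above the 1.25 of its decile, and FAS 204781_s_at and GADD45A lie below theirs.

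At the earlier times the MDM2 probe sets differed in the sign of their changes. At 3 h 205385_at read 89.6, 69.7 and 26.7 with sarin, against 82.8, 153.5 and 163 without, at -0.99 ± 0.44 (limma, adjusted p = 0.536). Of the others, the 3 above background on some arrays had changes between -0.58 and 0.53. At 24 h 217373_x_at read 167.1, 195.6 and 78.4 with sarin, against 331.4, 235.9 and 248.1 without, all sarin arrays below all untreated ones, at -0.89 ± 0.40 (adjusted p = 0.236). MDM2 211832_s_at, below background, did not pass (0.0978), and the other 3 had changes between -0.18 and 0.34. None of these passed.

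PPM1D encodes WIP1, a phosphatase that p53 induces and that then removes activating phosphates from p53 and its upstream kinases. At 24 h it read 1239.3, 1207.1 and 1159 in sarin-exposed cells, against 714.1, 704.7 and 893 in untreated cells. The 3 sarin arrays were close together and all above the untreated ones. The log2 change of 0.64 ± 0.20, a fold of 1.56, missed the limma threshold with an adjusted p of 0.0822, the smallest of any member at 24 h. The 95% confidence interval ran from 0.22 to 1.05. Without replicate 3 of the untreated 3 h arrays, which enter the shared spread, it passed (adjusted p = 0.0434).

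At 3 h PPM1D read 1004.1, 1395.9 and 1362.7 with sarin, against 1341.4, 1341.1 and 862.1 without, and at 48 h 908.4, 852.2 and 718.3, against 1247.7, 975.9 and 880.1. The groups overlapped at both times (0.10 ± 0.20 and -0.31 ± 0.20, limma, adjusted p = 0.926 and 0.177). In untreated cells PPM1D at 24 h differed from 3 h by -0.59 ± 0.20 (adjusted p = 0.107). The 24 h sarin mean of 1200 thus lay near the untreated 3 h mean of 1180, and the untreated 24 h mean was 771.

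TP53I3, also called PIG3, encodes a quinone oxidoreductase linked to reactive oxygen and apoptosis downstream of p53, and it fell at 48 h. It read 4937, 3957.4 and 3818.6 in sarin-exposed cells, against 6478.8, 5776.2 and 5616.5 in untreated cells. All sarin arrays lay below all untreated ones, and the log2 change was -0.50 ± 0.14 (limma, adjusted p = 0.00468). The median of its decile by level, the highest, was -1.06, and 74.9% of that decile lay below -0.50. Relative to probe sets of like level TP53I3 was thus on the high side, and with quantile normalization the sign of its change turned (0.25).

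At 24 h TP53I3 read 3938, 3567.8 and 3589.5 with sarin, against 4760, 4197.2 and 4967.7 without. The groups did not overlap, but the -0.32 ± 0.14 did not pass (limma, adjusted p = 0.211). At 3 h it read 6425.8, 6399.9 and 5689.2, against 5914.3, 5104.6 and 6996.7, with overlapping groups and a change of 0.05 ± 0.14. In untreated cells it differed by -0.36 ± 0.14 between 24 and 3 h (adjusted p = 0.151), and the untreated arrays of 48 h all lay above those of 24 h.

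SESN1 encodes sestrin 1, a stress protein that restrains the growth kinase complex mTORC1. It showed the smallest range of changes across the 3 times among the 14 members. It read 828.8, 818.5 and 796.3 with sarin at 3 h, against 956.8, 895 and 657.6 without. At 24 h it read 1085.1, 1150.9 and 1049.1, against 1214.6, 957.8 and 823.8, and at 48 h 1202.2, 1086.1 and 892.3, against 1228.8, 875.1 and 977. The groups overlapped at each time, and the log2 changes were -0.02, 0.15 and 0.05, each ± 0.19 (limma, adjusted p = 0.987, 0.719 and 0.83). The 95% confidence intervals ran from -0.41 to 0.37, from -0.25 to 0.54 and from -0.35 to 0.44.

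FAS encodes a cell surface death receptor through which the FAS ligand triggers apoptosis, and its 4 probe sets did not move together. At 48 h 216252_x_at rose: it read 508.2, 963.4 and 397 in sarin-exposed cells, against 199.7, 237 and 244.5 in untreated cells. All sarin arrays were above all untreated ones, 2 of 3 were above background, and the log2 change was 1.30 ± 0.38 (limma, adjusted p = 0.00687). Without sarin replicate 2 it was 0.94 with an adjusted p of 0.0501. The median of its decile by level was 0.96, and 64.4% of that decile lay below 1.30.

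The other 3 FAS probe sets did not pass at 48 h. FAS 204780_s_at read 528.1, 175.3 and 316 with sarin, against 223, 231 and 289.5 without (0.31 ± 0.35). FAS 204781_s_at read 42.6, 134.6 and 50.3, against 252, 84.5 and 94.3 (-0.78 ± 0.47), with 11.8% of its decile below that value. FAS 215719_x_at read 69.5, 229.6 and 311.3, against 201.2, 79.6 and 233 (0.14 ± 0.58). Without sarin replicate 2 the change of 204781_s_at was -1.21 with an adjusted p of 0.0421. The groups of all 3 overlapped, and 204781_s_at and 215719_x_at were not above background on any 48 h sarin array.

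At 24 h 2 FAS probe sets had all sarin arrays below all untreated ones. FAS 204781_s_at read 331.4, 200.3 and 210.3 with sarin, against 417.3, 467.5 and 416.5 without (-0.80 ± 0.47, limma, adjusted p = 0.377). FAS 216252_x_at read 177, 189.2 and 166.4, against 259.4, 457 and 239.6 (-0.73 ± 0.38, adjusted p = 0.313). Neither passed. Over all members the groups did not overlap for 7 of 14 at 24 h, 2 higher (CDKN1A and PPM1D) and 5 lower, where 32.2% of all probe sets did not overlap. At 48 h they did not overlap for 6 of 14, 5 higher and 1 lower, where 64.9% of all probe sets did not.

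The sarin effect itself was compared between times. Between 24 and 3 h no member passed (0 of 14 by limma, where 0.297% of all probe sets were called). At an unadjusted p under 0.05 there were 2 members and 2211 of all 22215 probe sets. GADD45A had the largest difference among the members, at -1.41 ± 0.58 (adjusted p = 0.405). Between 48 and 3 h 6 of 14 differed, where 48.8% of all probe sets were called. MDM2 205385_at differed by 3.77 ± 0.62 (adjusted p = 0.000104), 217542_at, which was not above background in untreated cells at 3 or 48 h, by 2.03 ± 0.70 (0.0237) and 217373_x_at by 1.63 ± 0.56 (0.023). For 205385_at, 0 of 3 sarin arrays at 3 h and 1 of 3 untreated arrays at 48 h were above background, so its 3.77 rests partly on signals below background. FAS 216252_x_at differed by 1.68 ± 0.54 (0.0162), GADD45A by -1.49 ± 0.58 (0.0421) and TP53I3 by -0.55 ± 0.20 (0.0279). The difference of MDM2 205385_at passed under all 26 alternatives. The other 5 lost the call when single arrays were left out. For MDM2 217373_x_at and 217542_at these were untreated replicate 3 at 3 h, untreated replicate 2 at 48 h and sarin replicate 1 at 48 h (1.32 to 1.42 and 1.43 to 1.85). For FAS 216252_x_at it was sarin replicate 2 at 48 h (1.32, adjusted p = 0.0503). These 3 differences also lost the call with quantile normalization (1.01, 1.38 and 1.12), with arrays centred on their median (1.01, 1.40 and 1.06) and with spike-in scaling (-0.31, 0.08 and -0.26). For GADD45A they were replicates 1 and 3 of sarin and of untreated cells at 3 h, sarin replicate 3 at 48 h and untreated replicates 1 and 2 at 48 h (-1.55 to -0.91). For TP53I3 they were sarin replicates 1 and 2 and untreated replicate 2 at 3 h, and sarin replicates 2 and 3 and untreated replicate 1 at 48 h (-0.52 to -0.43).

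Between untreated cells of different times no member passed the threshold. For 24 against 3 h limma called 0 of 14, where 3.27% of all probe sets were called. At an unadjusted p under 0.05 there were 5 members and 4434 of all 22215 probe sets. The largest value was that of FAS 204781_s_at, with 417.3, 467.5 and 416.5 at 24 h, against 112.2, 123.9 and 188.6 at 3 h (1.54 ± 0.47, adjusted p = 0.0792). Leaving out 1 untreated 3 h array let MDM2 211832_s_at, which is below background, pass without replicate 2 (adjusted p = 0.037) and PPM1D without replicate 3 (-0.80, 0.033). For 48 against 3 h 0 of 14 were called, where 0.099% of all probe sets were called. For 48 against 24 h it was 0 of 14, where 0.189% were called. An unadjusted p under 0.05 was found for 1 member (2385 of all probe sets) and 2 members (1996 of all) in these comparisons. The sarin effects at the different times use the untreated arrays of their own time, and the untreated comparisons share those arrays.

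Other parts of the p53 pathway were read from 4 gene lists, each gene by its probe set of highest mean signal. Genes that regulate p53, such as its kinases, acetylases and partners, numbered 16 measured of 18, and 0 were called at 3 or at 24 h. At 48 h 7 were higher and 3 lower, 62.5% of the list where 63.2% of all probe sets were called, with a median log2 change of 0.36, against 0.62 over all probe sets. MDM4, the relative of MDM2 that masks the activation domain of p53, read 404.2 to 818.2 in sarin-exposed cells at 48 h, against 29.7 to 90.6 in untreated cells. Limma called it higher (adjusted p = 4.55e-05), with 2 of 3 sarin arrays and no untreated array above background. At 3 and 24 h MDM4 was not above background in either group. KAT5, which acetylates p53, was at -2.05 ± 0.28, and PRKDC, the catalytic subunit of the DNA-dependent protein kinase, at -1.17 ± 0.18 (adjusted p = 6.05e-06 and 2.89e-05). TP73, a p53 relative, was called (0.000118) but was not above background in either group, so no size is read from it.

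Of 44 other p53 target genes, 37 were measured. At 3 h 0 were called, and 0 had an unadjusted p under 0.05. At 24 h 1 was called, higher, and the median of the list was -0.19, against -0.16 over all probe sets. That gene, RPS27L, encodes a ribosomal protein relative that p53 induces. It read 8259.3 to 9221.7 in sarin-exposed cells, against 4247.6 to 5344.6 in untreated cells, and the arrays did not overlap (0.85 ± 0.15, limma, adjusted p = 0.00408). At 48 h the same gene was lower, at 3142.7 to 3785.4, against 6030.7 to 6673.2 (-0.89 ± 0.15, adjusted p = 6.02e-05). Bright probe sets as a class were lower at that time: in the highest decile by level the median was -1.06, and 77% were called lower.

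At 48 h 9 of the other targets were higher and 9 lower, with a median of 0.00, against 0.62 over all probe sets. GTSE1, a G2 and S phase protein that binds p53, read 4087.1 to 5887.3 with sarin, against 793.1 to 1268.8 without (2.35 ± 0.19, limma, adjusted p = 7.38e-09). Its probe set has the suffix _x_at, so the probes can also match other sequences. The GTSE1 call was lost in 1 of 28 alternatives, spike-in scaling (0.29, adjusted p = 0.412). CCNG1, which encodes cyclin G1, was at -1.10 ± 0.13, PMAIP1, which encodes the apoptosis trigger NOXA, at -1.52 ± 0.19, and IER5, an immediate early gene, at -1.40 ± 0.20 (adjusted p = 1.41e-06, 2.14e-06 and 1.5e-05). The percentage of this list called at 48 h was 48.6%, where 63.2% of all probe sets were called.

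Cell cycle genes that p53 lowers through p21 were the other end of the pathway, and all 20 were measured. At 3 h 0 were called, and at 24 h 1 was higher and 0 lower, with a median of 0.18. KIF20A, a mitotic kinesin, read 2324.9 to 2736.7 with sarin at 24 h, against 1402.5 to 1893.4 without (0.60 ± 0.15, limma, adjusted p = 0.0295). The call was lost without any single one of sarin replicates 1, 2 and 3 or untreated replicates 2 and 3 at 24 h (0.47 to 0.67, adjusted p = 0.0542 to 0.17). At 48 h 16 of 20 were lower and 0 higher, where 21.5% of all probe sets were lower. That share rose with level, to 50.3% and 77% in the 2 highest deciles, and the list was not matched by level. The median was -1.22, against 0.62 over all probe sets. FOXM1, a transcription factor of mitotic genes, read 312.4 to 440.5, against 2045.2 to 2495.5, at least 5.36-fold lower (adjusted p = 3.88e-10). CCNB2, which encodes cyclin B2, was at -1.67 ± 0.15, and BIRC5, which encodes survivin, at -2.16 ± 0.21 (3.19e-08 and 8e-08). MCM5, a subunit of the replicative helicase, was at least 2.37-fold lower (7.98e-07). Over all probe sets, the median change at 48 h in the 2 highest deciles of level was -0.47 and -1.06.

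**Figure D5:**
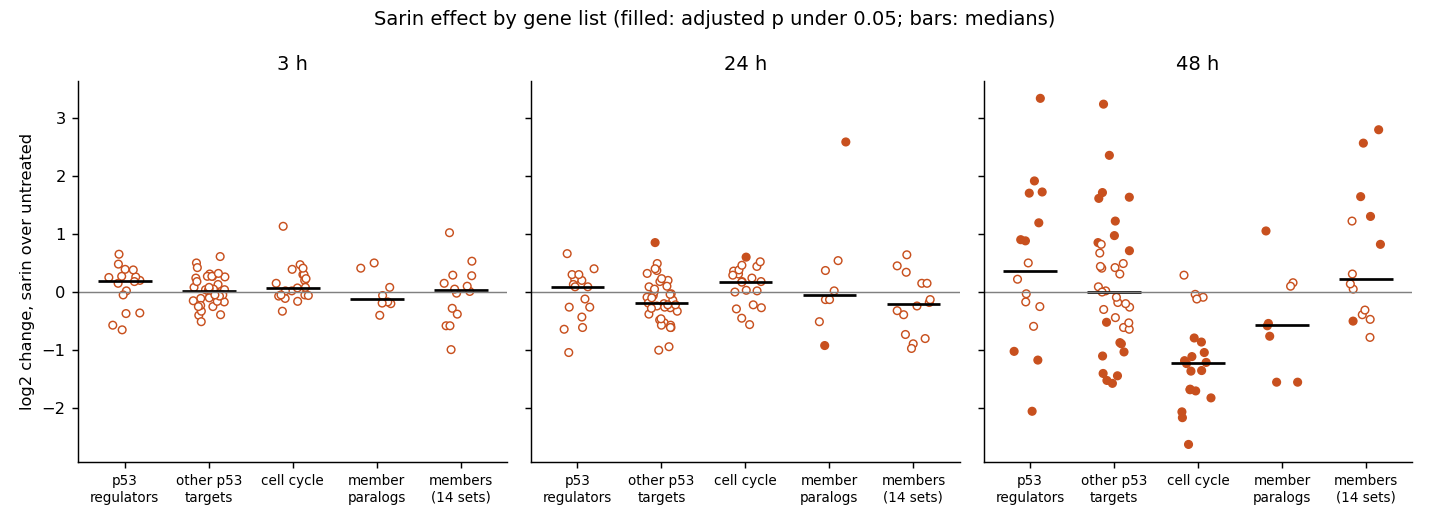
Log2 change, sarin over untreated, at 3, 24 and 48 h for the measured genes of 4 lists (1 probe set a gene) and the 14 member probe sets; bars are medians and filled points have an adjusted p under 0.05. At 24 h 4 list genes are filled, GADD45G, RPS27L, KIF20A and BTG3, and at 48 h 16 of 20 cell cycle genes are filled below 0.

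Among paralogs of the members, 8 of 9 were measured. At 3 h 0 were called, and at 24 h 1 was higher and 1 lower. GADD45G, a paralog of GADD45A with a related stress function, read 330.9, 361.6 and 405.6 in sarin-exposed cells at 24 h, against 29.7 to 61.3 in untreated cells. It was above background on all 3 sarin arrays and on no untreated array, and was at least 2.25-fold higher (limma, adjusted p = 0.00526). At 3 h it was not above background in either group, and at 48 h on no sarin array. BTG3, an antiproliferative paralog of BTG2, read 2118.3 to 2544.4 with sarin at 24 h, against 4031.1 to 4949.4 without (-0.92 ± 0.19, adjusted p = 0.0106). Its other 2 probe sets were at -0.74 ± 0.21 and -0.85 ± 0.28 and did not pass (adjusted p = 0.0602 and 0.0999). Without untreated replicate 2 or sarin replicate 3 at 24 h the adjusted p of BTG3 was 0.0677 and 0.0527.

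At 48 h 1 paralog was higher and 5 were lower, 75% of the list where 63.2% of all probe sets were called, 41.7% higher and 21.5% lower. The share lower was 50.3% and 77% in the 2 highest deciles by level, and this list was not matched by level either. The median was -0.56, against 0.62 over all probe sets. CDKN1B, which encodes the cyclin-dependent kinase inhibitor p27, was at -1.55 ± 0.27 (limma, adjusted p = 9.22e-05). The phosphatase genes PPM1A and PPM1B were at -1.55 ± 0.39 and -0.76 ± 0.20 (0.00247 and 0.00268), and BTG1 was at -0.58 ± 0.16 (0.00459).

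In untreated cells some genes of these lists differed between times. For 24 against 3 h DDIT4, an inhibitor of mTORC1 signalling, was higher by 1.03 ± 0.20 and SFN, which encodes 14-3-3 sigma, by 0.91 ± 0.20, while TXNIP, a thioredoxin inhibitor, fell by 0.70 (limma, adjusted p = 0.00827, 0.0185 and 0.0111). CDK1, CCNA2 and CCNB2, which drive entry into mitosis, were lower, at -0.63, -0.75 and -0.55 (0.0427, 0.0456 and 0.0499). Each of these 3 lost the call without single arrays of several groups, with changes of -0.79 to -0.44. SFN lost it without untreated replicate 1 at 3 h (0.67, adjusted p = 0.0755) or untreated replicate 2 or 3 at 24 h (0.89 and 0.86, 0.0683 and 0.0711). CDKN1C, which encodes the kinase inhibitor p57, was higher by 0.96 ± 0.14 (0.00178). On the arrays of the groups compared alone, DDIT4, TXNIP, SFN and CDKN1C lost the call (adjusted p = 0.0509, 0.126, 0.111 and 0.0581). With spike-in scaling DDIT4, SFN and CDKN1C lost it (0.24, 0.12 and 0.17), and TXNIP did after quantile normalization (adjusted p = 0.055). The ACTB ratio was 1.462 to 1.504 in untreated cells at 24 h and 0.7903 to 1.137 at 3 h, and its part was not tested. For 48 against 3 h only DDIT4 was called among these lists, at 1.27 ± 0.20 (0.0132), and without untreated replicate 1 at 48 h it was 1.12 with an adjusted p of 0.089. It also lost this call on the arrays compared alone (adjusted p = 0.129) and with spike-in scaling (0.44, adjusted p = 0.269).

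The genes whose pattern was most like that of 3 members were found by Pearson's r of log2 signal over the 15 arrays other than sarin at 48 h, among up to 7178 genes in the upper 60% by level. They were SEC11A, PTPN9 and CKAP5 for CDKN1A (r = 0.83, 0.83 and 0.82). For MDM2 217373_x_at they were INO80D, ERBB2 and FCN2 (0.88, 0.84 and 0.79), and for GADD45A they were MACIR, RETSAT and ZNF451 (each 0.84). Over all 18 arrays r was 0.51, 0.71 and 0.71 for CDKN1A, 0.92, 0.91 and 0.90 for MDM2, and 0.69, 0.58 and 0.28 for GADD45A. No other member was among these genes. These are descriptions: the points share 5 groups of 3 arrays, and the genes were picked as the highest of those compared.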

How the data were processed

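Total RNA of SH-SY5Y cells was measured on 18 arrays, 3 in each of 6 groups assigned from the sample titles. Per the submitters' processing notes the authors used MAS5, and the deposited table holds its signal intensity, unlogged. Neither a scaling target nor detection calls are given in the sources used. The mean after trimming was 800.1 to 800.3 on every array, so dim and bright signals can shift against each other where an array's distribution differs. Of 22283 probe sets 68 are controls. Of the rest, 19065 have 1 gene symbol, 1043 have several and 2107 have none, and those with 1 symbol cover 11963 genes.

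Log2(signal + 16) of all 22215 other probe sets was fitted with group means in limma 3.58.1 under R 4.3.3 (lmFit, contrasts.fit, eBayes with trend, 12 residual and 6.73 prior degrees of freedom, two-sided, Benjamini-Hochberg, threshold 0.05). Fold changes on that scale understate changes of low signals. Where a probe set was at or below background on all 3 arrays of a group, a bound ("at least") sets the other group's mean against the mean of the per-array thresholds. None is given where the brighter group is 48 h sarin, whose own background is raised. The number of arrays limits the precision. No probe set was filtered.

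Members and lists were chosen with earlier results of these data known. All member probe sets are named. Of each list, up to 4 called genes of smallest p are named per comparison, and MDM4 always. RefSeq promoters (GRCh38.p14) gave the sequences. Replicate numbers in the titles do not pair arrays: correlations of same-numbered deviations were -0.0706 to 0.0248.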

Additional observations from a re-analysis of the deposited data

Results flagged for a closer look

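The sarin effect differed between 48 and 3 h, by limma's test of the difference of differences, for 6 member probe sets. The differences in log2 change, 48 minus 3 h, were 3.77 for MDM2 205385_at, 2.03 for MDM2 217542_at, 1.63 for MDM2 217373_x_at, 1.68 for FAS 216252_x_at, -1.49 for GADD45A and -0.55 for TP53I3. On the whole array 48.8% of probe sets differed in this test. All 6 values rest on the 48 h sarin arrays, whose GAPDH 3′ to 5′ ratio was 2.15 to 2.301. MDM2 205385_at was above background on no sarin array at 3 h, so its value rests partly on signals below background. For GADD45A the 48 h change alone did not pass (-0.47), and neither did the 3 h change (1.02). Its difference was -0.91 without sarin replicate 3 at 48 h (adjusted p = 0.117). The part of RNA quality in these differences was not tested.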

How the results depend on the processing

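The 48 h results depend on the scaling between arrays. The median log2 change over all probe sets at 48 h was 0.62 as deposited, 0.13 after quantile normalization, 0.06 with arrays centred on their median and -1.21 with arrays scaled to the hybridisation spike-ins. With spike-in scaling 8 members were called at 48 h, all lower. The share of all probe sets called at 48 h was 53.6% with spike-in scaling, 51.9% with median centring and 50.5% after quantile normalization. Signs turned for MDM2 217373_x_at (-0.29) and 211832_s_at (-0.60), FAS 216252_x_at (-0.65), 204780_s_at (-1.54) and 215719_x_at (-1.58), SESN1 (-1.96) and, with no call either way, MDM2 205386_s_at (-0.66). For 48 minus 3 h they turned for MDM2 217373_x_at (-0.31), FAS 216252_x_at (-0.26), SESN1 (-1.95) and, with no call either way, MDM2 211832_s_at (-0.96) and 205386_s_at (-0.04) and FAS 204780_s_at (-0.95). Median centring turned SESN1 (-0.51) and, uncalled, FAS 204780_s_at (-0.25) and 215719_x_at (-0.43) at 48 h, and SESN1 (-0.55) and MDM2 211832_s_at (-0.08) for 48 minus 3 h, with 9 members called at 48 h, 3 higher and 6 lower. Quantile normalization turned MDM2 211832_s_at (-0.11), TP53I3 (0.25) and, uncalled, FAS 204780_s_at (-0.29) and 215719_x_at (-0.56) and SESN1 (-0.24) at 48 h. It turned TP53I3 (0.17) and, uncalled, MDM2 211832_s_at (-0.43) and SESN1 (-0.21) for 48 minus 3 h, with 5 members called at 48 h, 3 higher and 2 lower. MDM2 205385_at and 217542_at stayed positive under all 26 alternatives (0.82 to 3.06 and 0.66 to 2.93) and lost the call with spike-in scaling only (adjusted p = 0.196 and 0.358). FAS 216252_x_at lost its 48 h call after quantile normalization (0.81) and centring (0.74). Kept to the upper 60% of probe sets, or to 1 probe set per gene there, 6 and 5 members remain, and 1 (TP53I3) was called at 48 h and 2 (TP53I3 and GADD45A) for 48 minus 3 h under either. Of all probe sets kept, 68.8% and 70.7% were called at 48 h, and 57.5% and 59.8% for 48 minus 3 h.

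At 24 h 1 member was called with median centring, 1 on the 6 arrays of that time alone and 2 with array weights. PPM1D was called in 4 of 29 alternatives, at 0.58 to 0.93. The calls over all probe sets at 24 h were 749, against 424 (quantile), 1429 (centred), 39 (spike-ins), 2384 (array weights), 1603 (6 arrays), 1258 (without the 48 h sarin arrays) and 228 to 1042 with 1 array left out. RPS27L was called in 28 of 29, GADD45G in 27 of 27, BTG3 in 25 of 29 and KIF20A in 22 of 29. In untreated cells, 24 against 3 h, members called were 2 (centred), 3 (spike-ins), 3 (array weights) and 2 (without the 48 h sarin arrays). The shares of all probe sets called there were 7.27%, 17%, 6.73% and 5.02%, against 3.27% in the main fit. Quantile normalization and the arrays of the groups compared alone called 0 members there, and 1.23% and 0.126% of all probe sets. Members called were 3 for 48 against 3 h with spike-ins (16.6% of all probe sets) and 1 for 48 against 24 h with array weights (1.2%). Leaving out 1 array gave 0 to 1 members called at 24 h (1 without untreated replicate 3 at 3 h), 5 to 8 at 48 h, 3 to 6 for 48 minus 3 h (3 without untreated replicate 3 at 3 h) and 0 to 1 in untreated cells at 24 against 3 h (1 without untreated replicate 2 or 3 at 3 h). Of all probe sets, 55.5% to 64.6% were then called at 48 h and 42.9% to 49.5% for 48 minus 3 h. In untreated cells at 24 against 3 h it was 1.11% to 3.86%. The replicate block, with numbers that do not pair the arrays, gave 0, 0 and 6 members at 3, 24 and 48 h and 5 for 48 minus 3 h, where GADD45A missed (adjusted p = 0.0531), and 659 calls over all probe sets at 24 h. With that block 63.3% of all probe sets were called at 48 h and 48.8% for 48 minus 3 h. No alternative called a member at 3 h. The causes of these changes were not tested.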
